A study of Mus musculus with 10 samples.

Results

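The genes described here are the ligands, receptors, Smads, antagonists and immediate targets of TGF-beta and bone morphogenetic protein (BMP) signalling, chosen by gene symbol from the full expression table of a mouse tumour study. The rule took Tgfb1 to Tgfb3, symbols beginning with Tgfbr or Tgfbi, the numbered Bmp and Gdf genes, the BMP receptors, the inhibin, Acvr, Smad, Ltbp and Id families, and a set of named antagonists and regulators. It found 76 of the 27968 rows of the table, covering 74 gene symbols. The authors' program tested 59 of these rows, which cover 57 genes, and left 17 genes untested at low values. Of the tested rows, 58 had at least 1 FPKM (fragment counts scaled to transcript length and library size) in a condition.

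The tumours grew under the skin of immune-compromised mice from C57BL/6 embryonic fibroblasts carrying RAS and a dominant-negative p53 (DNP53), and the name of the authors' table gives the RAS allele as G12V. The tagged group had 3 tumours with tagged cyclin D1 from 2 numbered lines, so that a pair of them shares a line, and the untagged group had 2 tumours with untagged cyclin D1 from 2 other lines. HA siRNA was given rectally in both groups, untagged controls included, 5 times per day once tumours had reached 500 mm3, and tumours were taken 30 min after the last dose. The authors' deposited table gives 1 value for each of 2 conditions, C2 and C1, and no source used here says which of them is tagged, so higher and lower always mean in C2 against C1. There are no values per tumour, hence no SD, and the depth is unknown. A gene was called when the q-value in the authors' deposited table, adjusted over all tested rows, was under 0.05. The cyclin D1 gene Ccnd1 itself stood at 243 FPKM in C2 and 161 FPKM in C1 (q = 0.218, authors' deposited table).

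As background, TGF-beta, activin and BMP dimers bind pairs of type I and type II receptor kinases. The type I receptor phosphorylates receptor Smads, Smad2 and Smad3 for TGF-beta and activin and Smad1, Smad5 and Smad9 for BMPs, which join Smad4 and enter the nucleus. Secreted antagonists bind the ligands, Smad6 and Smad7 inhibit the receptors from inside, and the Id genes are among the best known direct BMP targets. In fibroblasts the TGF-beta branch is known for driving matrix genes.

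The called members of the pathway lay in both directions. Id2, Acvr2b and Smad7 rose in C2, and Chrd, Fstl1 and Tgfbr3 fell. These 6 of 59 tested rows are 10.2%, against 7.12% of all 16681 tested rows and 7.21% of those with at least 1 FPKM in a condition. By direction, 3 members (5.08%) were called higher, against 4.20% of all tested rows, and 3 members (5.08%) were called lower, against 2.92%. The members' shares lie near these backgrounds, and nothing is read from them. In a bulk tumour, fewer cells of a type and less RNA per cell cannot be told apart, and this holds for every value below. The summed value of 10 fibroblast markers was 2513 FPKM in C2 and 5973 FPKM in C1, and its part in the calls of members was not tested.

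More members passed the weaker limit of an unadjusted p under 0.05. There were 19 such rows (32.2%), against 17.1% of all tested rows, and 13 of the 19 had the lower value in C2. By direction the shares were 10.2% higher, against a background of 9.42%, and 22% lower, against 7.71%. At least 2-fold apart were 12 members (20.3%), against 17.7% of all tested rows. The median log2 ratio of the tested members was -0.20, against 0.05 over all tested rows, and 55.9% of the members against 45.6% of all rows had the lower value in C2.

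**Figure D1:**
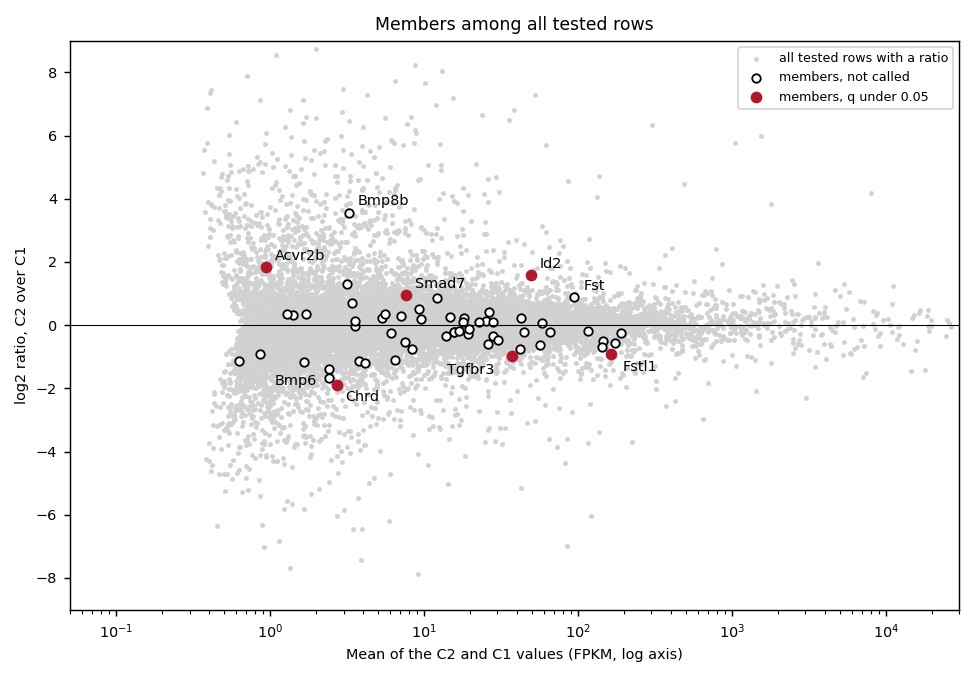
Log2 ratio of C2 over C1 (vertical axis) against the mean of both deposited values in FPKM (horizontal, log axis), with all tested rows that have a ratio in grey, uncalled members as open circles and called members in red. Id2 (1.58) is the called member furthest from 0 among those above 10 FPKM in a condition, and Bmp8b (3.56) lies highest without being called.

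**Figure D2:**
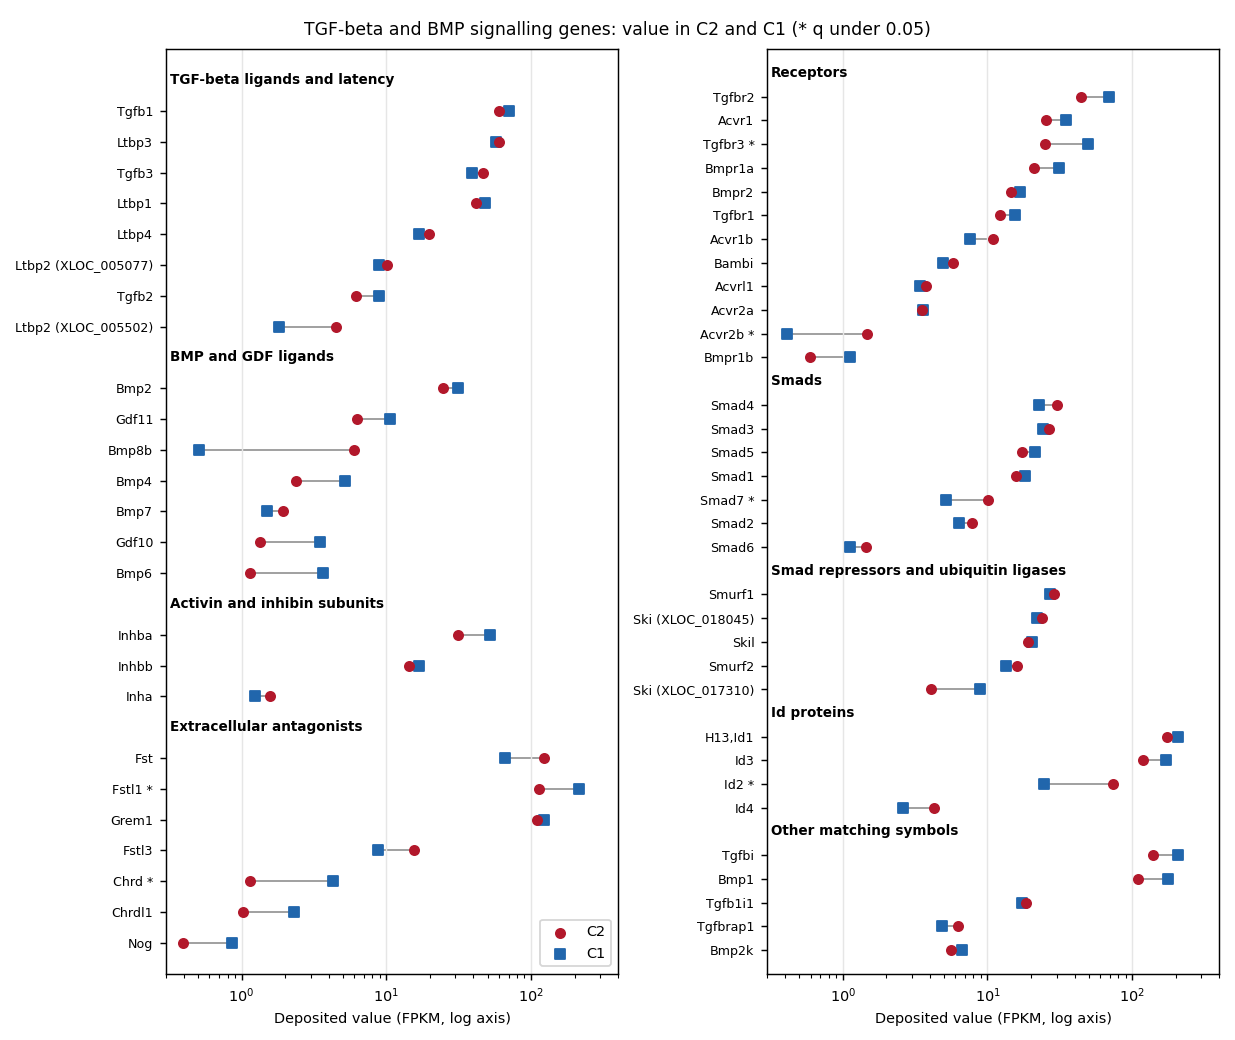
Deposited value of 58 of the 59 tested rows of members in FPKM (log axis) by role, with C2 as red circles, C1 as blue squares and a star at each called gene; each point is the single value of its condition. The TGF-beta ligands and the receptor Smads have both points close together, while Chrd, Acvr2b, Id2 and the uncalled Bmp8b and Bmp6 have them far apart.

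None of the TGF-beta ligands or their carriers was called. Tgfb1, the main secreted isoform, stood at 60.3 FPKM in C2 and 70.4 FPKM in C1 (q = 0.833). Tgfb3 had 46.2 FPKM in C2 and 39.1 FPKM in C1, and Tgfb2 had 6.16 FPKM in C2 and 8.90 FPKM in C1. The order Tgfb1, Tgfb3, Tgfb2 was thus the same in both conditions, and the sum of the 3 isoforms was 113 FPKM in C2 and 118 FPKM in C1. Latent TGF-beta binding proteins hold the ligand in the matrix. Ltbp3, with 59.7 FPKM in C2 and 57.1 FPKM in C1, was the most abundant of them in both conditions, followed by Ltbp1 with 41.3 FPKM in C2 and 48.3 FPKM in C1 and Ltbp4 with 19.6 FPKM in C2 and 16.8 FPKM in C1. Ltbp2 has 2 rows at one locus: one had 10.2 FPKM in C2 and 8.89 FPKM in C1, and the other 4.47 FPKM in C2 and 1.82 FPKM in C1, the largest ratio of this group (log2 1.29, q = 0.0856). The 8 tested rows had a median log2 ratio of 0.13, and the count of calls was 0 in Cuffdiff's q, with 1 row at an unadjusted p under 0.05.

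The BMP and GDF ligands were mostly at low values, and none of the 7 tested ones was called (0 by Cuffdiff's q, 3 at an unadjusted p under 0.05). Bmp2, the most abundant, had 24.5 FPKM in C2 and 31.2 FPKM in C1 (q = 0.637). Bmp4, a ligand of mesenchyme and epithelial borders, had 2.39 FPKM in C2 and 5.21 FPKM in C1 (log2 ratio -1.13, q = 0.127). Gdf10 had 1.33 FPKM in C2 and 3.48 FPKM in C1 (q = 0.0991), and Gdf11, an activin-like ligand, had 6.26 FPKM in C2 and 10.6 FPKM in C1 (q = 0.143). These 3 were the rows below an unadjusted p of 0.05, all with the lower value in C2. Bmp6 had 1.14 FPKM in C2 and 3.66 FPKM in C1 (q = 0.756), and Bmp7 had 1.93 FPKM in C2 and 1.502 FPKM in C1 (q = 0.880).

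Bmp8b had the largest ratio of all tested members and was not called. It stood at 5.99 FPKM in C2 and 0.508 FPKM in C1 (log2 ratio 3.56), and the authors' deposited table gives p = 0.165 and q = 0.548. Bmp8a, a related gene 187 kb away, was untested at 0.0662 FPKM in C2 and 0.0575 FPKM in C1. Whether reads of the pair were split between them was not tested. Oxct2b, listed at the same locus as Bmp8b, had values under 1 FPKM in both conditions. The untested ligands were Bmp3, Bmp5, Bmp8a, Bmp10, Bmp15, Gdf1, Gdf2, Gdf3, Gdf5, Gdf6, Gdf7, Gdf9 and the stress-induced Gdf15. The highest value among all 17 untested members was that of Gdf15 in C2, 0.805 FPKM, against 0.439 FPKM in C1. Bmp10, Gdf2 and Inhbc were listed at 0 in both conditions.

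The activin subunits Inhba and Inhbb were above the ligands of the BMP group other than Bmp2. Inhba, whose product dimerises to activin A, had 31.2 FPKM in C2 and 52.2 FPKM in C1 (log2 ratio -0.74, q = 0.151). The deposited fold of Inhba differs from the ratio of its deposited values (-0.65 on the log2 scale), as does that of Grem1 (-0.11 against -0.18). They are 2 of 19 tested rows in the whole table where this difference exceeds 0.01. Inhbb stood at 14.4 FPKM in C2 and 16.8 FPKM in C1, and Inha, the inhibin alpha subunit, at 1.56 FPKM in C2 and 1.25 FPKM in C1. Of these 3 tested subunits 0 were called, and 1 had an unadjusted p under 0.05. Inhbe, untested, had 0.00793 FPKM in C2 and was listed at 0 in C1.

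The extracellular antagonists held 2 of the called members, both lower in C2. Chrd, chordin, a secreted BMP antagonist (XLOC_009109, chromosome 16, 20724526 to 20742457, MGSCv37), fell to 1.14 FPKM in C2, against 4.26 FPKM in C1. The log2 ratio was -1.90 (q = 0.0218, authors' deposited table), and -1.29 once 1 FPKM was added to both values. The table lists the same interval for Thpo, which was untested. Fstl1, a secreted follistatin-like glycoprotein made by mesenchymal cells (XLOC_009198, chromosome 16, 37777140 to 37836611), fell to 114 FPKM in C2, against 216 FPKM in C1 (log2 ratio -0.92, q = 0.0244). It was the most abundant antagonist in C1, whereas Fst was in C2.

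Chrdl1, a chordin-like BMP antagonist, had 1.02 FPKM in C2 and 2.29 FPKM in C1 (q = 0.137), and noggin, Nog, had 0.392 FPKM in C2 and 0.860 FPKM in C1 (q = 0.464). Once 1 FPKM was added to both values the log2 ratio was -0.70 for Chrdl1 and -0.42 for Nog. Fst, follistatin, which binds activin, had 123 FPKM in C2 and 66.2 FPKM in C1 (log2 ratio 0.89, q = 0.123). Fstl3 had 15.6 FPKM in C2 and 8.70 FPKM in C1 (log2 ratio 0.85, q = 0.144). The BMP antagonist Grem1 was abundant in both conditions, with 109 FPKM in C2 and 124 FPKM in C1 (q = 0.924). In the group 6 of 8 rows had an unadjusted p under 0.05, against 17.1% of all tested rows. Fst and Fstl3 were among the 6 with the higher value in C2, and the others had the lower value. The median log2 ratio of the group was -1.03.

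Of the 12 tested receptors and co-receptors 1 was called higher and 1 lower. Tgfbr3, betaglycan, the co-receptor that presents TGF-beta2 and binds inhibin (XLOC_019321, chromosome 5, 107535586 to 107718614), fell to 25.1 FPKM in C2, against 49.6 FPKM in C1, with a log2 ratio of -0.98 (q = 0.0146). Acvr2b, an activin type II receptor (XLOC_025789, chromosome 9, 119311618 to 119343803), rose to 1.47 FPKM in C2, against 0.411 FPKM in C1. Its log2 ratio was 1.83 (q = 0.0279) without and 0.81 with a pseudocount of 1. Acvr2a, the other activin type II receptor, had 3.53 FPKM in C2 and 3.57 FPKM in C1 (q = 0.997).

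The signalling TGF-beta receptors were not called. Tgfbr2, the type II receptor and the most abundant receptor in both conditions, had 44.6 FPKM in C2 and 69.3 FPKM in C1 (log2 ratio -0.64, q = 0.107). Its type I partner Tgfbr1 had 12.2 FPKM in C2 and 15.4 FPKM in C1 (q = 0.586). Among BMP type I receptors, Bmpr1a had 20.9 FPKM in C2 and 31.4 FPKM in C1 (q = 0.173), Acvr1 had 25.3 FPKM in C2 and 34.9 FPKM in C1 (q = 0.426), and Bmpr1b had 0.593 FPKM in C2 and 1.12 FPKM in C1 (q = 0.360). Bmpr2, the BMP type II receptor, had 14.6 FPKM in C2 and 16.8 FPKM in C1 (q = 0.804). Acvr1b, the activin type I receptor, stood at 10.9 FPKM in C2 and 7.59 FPKM in C1 (q = 0.364), and Acvrl1, a type I receptor of endothelium, at 3.75 FPKM in C2 and 3.42 FPKM in C1. The pseudoreceptor Bambi had 5.81 FPKM in C2 and 4.91 FPKM in C1 (q = 0.838). Acvr1c was untested, at 0.0625 FPKM in C2 and 0.111 FPKM in C1. The median log2 ratio of the 12 was -0.27, with 8 lower in value.

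**Figure D3:**
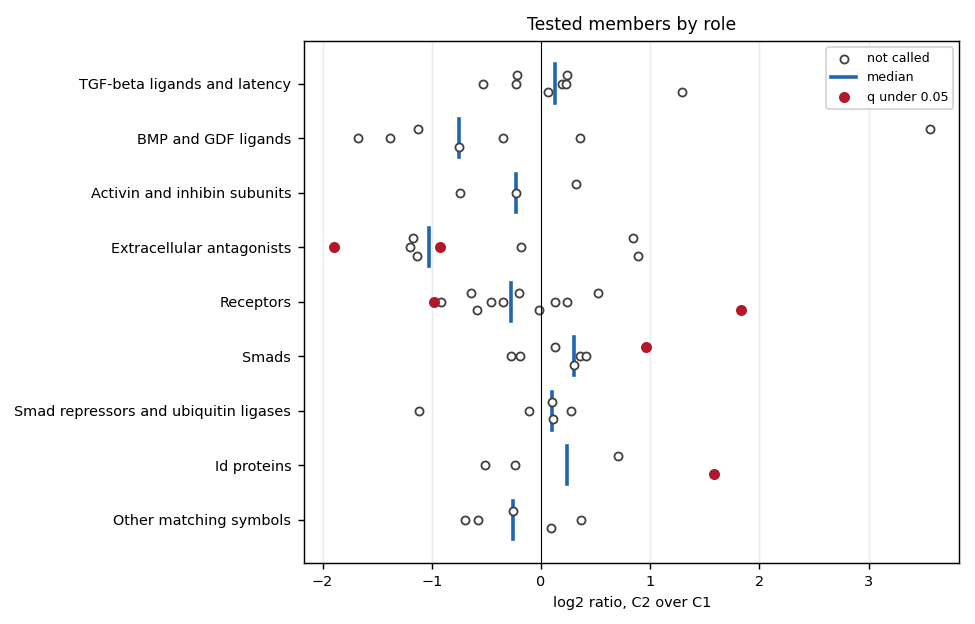
Log2 ratio of C2 over C1 of the tested members by role, with open circles for rows not called, red circles for called rows and a blue bar at each role's median. The antagonists have the lowest median, -1.03, and the Smads the highest, 0.30.

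Of the 7 tested Smads 1 was called, an inhibitor. Smad7, the inhibitory Smad that recruits ubiquitin ligases to the receptor and is itself a TGF-beta target (XLOC_011516), rose to 10.1 FPKM in C2, against 5.19 FPKM in C1 (log2 ratio 0.96, q = 0.0408). It was the called member nearest to the limit. Smad6, the other inhibitory Smad, had 1.45 FPKM in C2 and 1.13 FPKM in C1 (q = 0.851).

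The receptor Smads were not called. Smad3 had 26.5 FPKM in C2 and 24.2 FPKM in C1, and Smad2 had 7.88 FPKM in C2 and 6.39 FPKM in C1, with q of 0.928 and 0.678. On the BMP side, Smad1 had 15.8 FPKM in C2 and 18.1 FPKM in C1 (q = 0.856) and Smad5 had 17.4 FPKM in C2 and 21.1 FPKM in C1 (q = 0.675). Smad9 was untested, at 0.0529 FPKM in C2 and 0.131 FPKM in C1. Smad4, the shared partner, had 30.2 FPKM in C2 and 22.8 FPKM in C1 (q = 0.527). The 5 receptor Smads summed to 67.7 FPKM in C2 and 70.0 FPKM in C1, with Smad3 first in both.

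No Smad repressor or Smad ubiquitin ligase was called (0 by Cuffdiff's q and 0 at an unadjusted p under 0.05, of 5 rows). Smurf1 stood at 28.9 FPKM in C2 and 27.0 FPKM in C1, and Smurf2 at 16.1 FPKM in C2 and 13.3 FPKM in C1. Skil, a repressor induced by TGF-beta, had 19.0 FPKM in C2 and 20.5 FPKM in C1. Its relative Ski has 2 rows at one locus with unlike ratios: the more abundant had 23.7 FPKM in C2 and 22.04 FPKM in C1 (log2 ratio 0.11, q = 0.942), and the other 4.09 FPKM in C2 and 8.88 FPKM in C1 (log2 ratio -1.12, q = 0.587).

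Among the Id genes, which encode inhibitors of basic helix-loop-helix factors, Id2 was the called one. Id2 (XLOC_005333, chromosome 12, 25778663 to 25780957, MGSCv37) rose 3.00-fold to 73.9 FPKM in C2, against 24.6 FPKM in C1. Its p of 5e-05 is the smallest in the table, shared by 500 rows, with q = 0.00167 in the authors' deposited table. Id3 had 119 FPKM in C2 and 169.8 FPKM in C1 (log2 ratio -0.51, q = 0.426), and Id4 had 4.25 FPKM in C2 and 2.60 FPKM in C1 (q = 0.514). Id1 is joined with the overlapping gene H13 in 1 row, with 175 FPKM in C2 and 206 FPKM in C1 (q = 0.883), so its own value cannot be told apart. Counting that row as Id1, Id2 made up 19.9% of the family's summed FPKM in C2 and 6.11% in C1. Of these 4 rows 1 was called and 2 had the higher value in C2.

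Other symbols that the rule matches belong to the pathway by name or by regulation. Tgfbi, a secreted matrix protein induced by TGF-beta, had 140 FPKM in C2 and 209 FPKM in C1 (log2 ratio -0.58, q = 0.222). Bmp1, a procollagen C-proteinase and no BMP ligand, had 109 FPKM in C2 and 178 FPKM in C1 (log2 ratio -0.70, q = 0.186). Both had the lower value in C2 and an unadjusted p under 0.05. The focal adhesion protein Tgfb1i1 stood at 18.5 FPKM in C2 and 17.3 FPKM in C1, Tgfbrap1 at 6.25 FPKM in C2 and 4.85 FPKM in C1, and the kinase Bmp2k at 5.60 FPKM in C2 and 6.69 FPKM in C1, and 0 of the 5 rows was called.

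The promoters of the called members at least 2-fold apart are shown for reference beside these results, from RefSeq on GRCm38.p6, 5′ to 3′ on the gene's strand, from 250 bases before to 50 after the start. Of the 74 member symbols 52 had an entry. Capitals mark a match to GTCTG or its reverse complement CAGAC (the Smad box), to GTCTAGAC (the Smad3 and Smad4 palindrome), or to GGCGCC (a GC element bound by Smads), searched on both strands. The Id2 window is chr12:25096043-25096342 on the minus strand, that of Acvr2b chr9:119401928-119402227 on the plus strand and that of Chrd chr16:20732877-20733176 on the plus strand.
Id2: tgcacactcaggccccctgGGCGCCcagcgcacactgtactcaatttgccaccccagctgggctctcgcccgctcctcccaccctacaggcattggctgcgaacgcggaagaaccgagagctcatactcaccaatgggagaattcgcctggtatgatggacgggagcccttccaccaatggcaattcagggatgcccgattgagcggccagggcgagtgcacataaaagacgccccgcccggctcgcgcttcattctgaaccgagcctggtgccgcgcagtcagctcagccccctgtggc
Acvr2b: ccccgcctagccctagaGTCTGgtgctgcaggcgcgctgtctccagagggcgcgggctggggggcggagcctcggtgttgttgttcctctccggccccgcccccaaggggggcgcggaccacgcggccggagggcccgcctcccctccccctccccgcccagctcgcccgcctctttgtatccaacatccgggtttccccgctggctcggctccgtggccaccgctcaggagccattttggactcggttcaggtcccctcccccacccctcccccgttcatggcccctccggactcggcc
Chrd: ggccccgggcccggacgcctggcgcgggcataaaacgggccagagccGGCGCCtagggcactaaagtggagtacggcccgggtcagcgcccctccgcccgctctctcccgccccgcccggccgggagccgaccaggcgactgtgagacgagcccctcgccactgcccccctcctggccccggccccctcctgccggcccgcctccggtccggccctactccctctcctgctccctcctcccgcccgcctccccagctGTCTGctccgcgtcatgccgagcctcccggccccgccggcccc

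The Id2 window held 1 GC element and 0 Smad boxes, that of Acvr2b 1 Smad box and 0 GC elements, and that of Chrd 1 of each. None of the 3 windows held the palindrome. Over all 32851 RefSeq windows of this length, 49.6% held a Smad box, 11.9% the GC element and 0.213% the palindrome. Over the 64 windows of members the shares were 50%, 31.3% and 1.56%. The windows of members were also richer in G and C, with a median of 64.7% against 52.7% over all windows, and the part of base composition in these shares was not tested. A match in a window is a run of letters and not a bound site.

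Some members lie side by side in the genome. Within 200 kb there were 7 pairs of different members, and in 3 of them both were tested. Smad3 and Smad6 on chromosome 9 had log2 ratios of 0.13 and 0.36, Acvr1b and Acvrl1 on chromosome 15 of 0.52 and 0.13, and Tgfbi and Smad5 on chromosome 13 of -0.58 and -0.28. Each of these 3 pairs had 1 sign, none with a called gene. Gdf10 stood 5.76 kb from Gdf2, which was listed at 0 in both conditions.

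Other genes of the pathway, which the symbol rule does not reach, were read from 5 lists of 90 symbols, of which 89 were in the table. Of 76 tested rows 5 were called higher (6.58%, against 4.20% of all tested rows) and 10 lower in C2 (13.2%, against 2.92%), with a median log2 ratio of -0.29. Of 11 tested activation and co-receptor genes 3 were called lower (27.3%) and 0 higher (median -0.48). Thbs1, thrombospondin-1, which activates latent TGF-beta, fell to 100.1 FPKM in C2, against 285 FPKM in C1 (log2 ratio -1.51, q = 0.00167). Lrrc32, which tethers latent TGF-beta to the cell surface, had a log2 ratio of -1.30 (q = 0.00297), and the membrane metalloproteinase Mmp14 of -0.84 (q = 0.0459).

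Of 10 other tested ligands and antagonists 2 were called, both lower (20%, against 2.92% of all tested rows, median -0.55). The BMP-binding protein Bmper fell to 0.746 FPKM in C2, against 2.50 FPKM in C1 (log2 ratio -1.75, q = 0.0264). Dcn, decorin, a matrix proteoglycan that binds TGF-beta, fell to 184 FPKM in C2, against 451 FPKM in C1 (q = 0.00297). It is the 1 gene that this list shares with the fibroblast markers below. Without it 1 of 9 was called lower, with a median of -0.42, a count added after seeing the data. Of 18 tested intracellular regulators 0 were called by Cuffdiff's q, against 7.12% of all tested rows, and the median was 0.01. At an unadjusted p under 0.05 there were 2 of them, against 17.1% of all tested rows. The most abundant of them, the corepressor Tgif1, had 117 FPKM in C2 and 122 FPKM in C1 (q = 0.962).

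Of 26 tested TGF-beta target genes 6 were called lower (23.1%, against 2.92% of all tested rows) and 0 higher. The lower value was in C2 for 23 of them (88.5%, against 45.6% of all tested rows), and the median was -0.71. Besides Thbs1, the matricellular genes Postn and Cyr61 and the protease inhibitor Timp1 fell. Postn had a log2 ratio of -1.48 and Cyr61 of -1.19, and Timp1 had 881 FPKM in C2 and 1764 FPKM in C1 (q = 0.0375). Col1a1, a collagen chain named here after its values were seen, is among the called genes although its values of 281 FPKM in C2 and 312 FPKM in C1 (log2 ratio -0.15) differ from its fold of -1.07 in the authors' deposited table. The list shares 5 genes, Col1a1 included, with the fibroblast markers below, and without them 4 of 21 were called lower, with a median of -0.57, a count added after seeing the data. The target Ctgf, chosen for mention after its values were seen, was not called. Ctgf had 32.2 FPKM in C2 and 28.3 FPKM in C1 (q = 0.844).

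Of 15 tested BMP target genes 5 were called higher (33.3%, against 4.20% of all tested rows) and 0 lower, while the median was -0.01 and 8 had the lower value. The Notch and BMP target Hey1 rose to 31.4 FPKM in C2, against 4.34 FPKM in C1 (log2 ratio 2.85, q = 0.00167). Gata4, Sp7 and Dlx5 also rose, each with under 1 FPKM in C1. The endoderm and heart factor Gata4 reached 4.58 FPKM in C2, against 0.0777 FPKM in C1 (log2 ratio 5.88). The bone factor Sp7 reached 1.74 FPKM in C2, against 0.235 FPKM in C1, and the homeobox gene Dlx5 1.37 FPKM in C2, against 0.140 FPKM in C1. Adding 1 FPKM to both values gave log2 ratios of 2.37 for Gata4, 1.15 for Sp7 and 1.06 for Dlx5. Sox9, a cartilage factor, rose to 19.3 FPKM in C2, against 9.07 FPKM in C1. It is the 1 gene that the list shares with the cartilage markers, and without it 4 of 14 were called higher, also a count added after seeing the data.

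Some markers of cell types that a tumour can hold were called as well, and their part in the values above was not tested. For comparison, 4.20% of all tested rows were called higher and 2.92% lower in C2. Of 10 fibroblast markers 6 were called lower and 0 higher, and their summed value was 2513 FPKM in C2 and 5973 FPKM in C1. That sum includes Col1a1, whose values differ from its deposited fold as given above. Since the tumours grew from embryonic fibroblasts, these markers cannot tell tumour cells from host fibroblasts. Of 10 skeletal muscle markers 7 were called lower and 0 higher, with sums of 115 FPKM in C2 and 1269 FPKM in C1. Of 10 epithelial markers 8 were called higher and 0 lower, with sums of 1113 FPKM in C2 and 641 FPKM in C1, although the most abundant, Krt18, had 514 FPKM in C2 and 516 FPKM in C1. Of 7 tested cartilage markers 6 were called higher and 0 lower (sums of 121 FPKM in C2 and 11.1 FPKM in C1). Of 8 endothelial markers 1 was called higher and 1 lower (sums of 122 FPKM in C2 and 128 FPKM in C1), and of 9 macrophage markers 1 was called higher (a sum of 595 FPKM in both conditions). No marker in these lists was at 0 in C2 or C1.

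**Figure D4:**
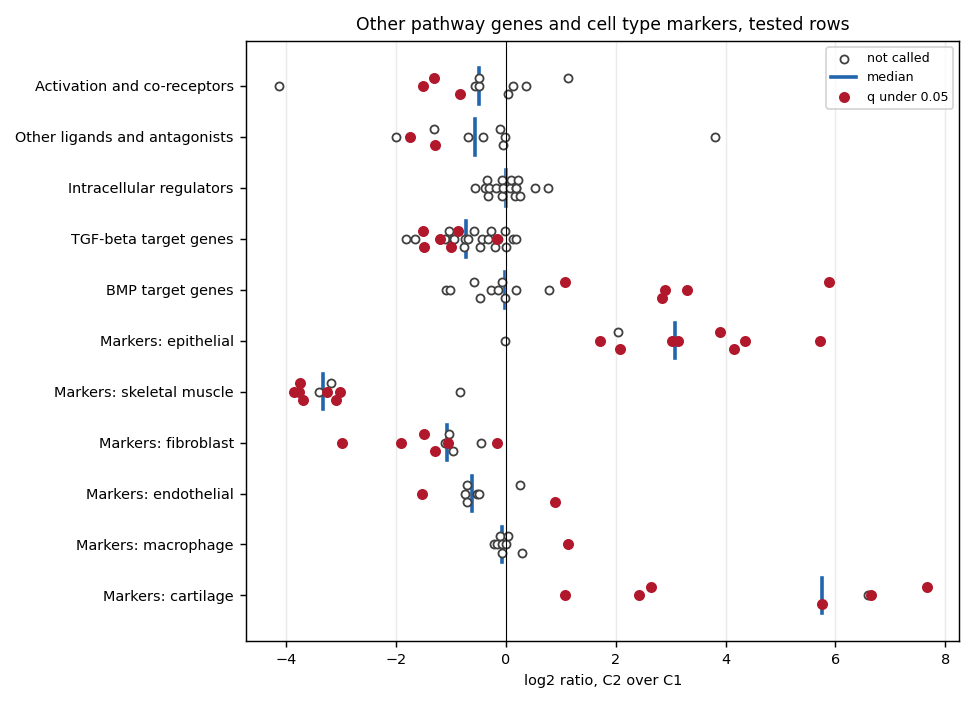
Log2 ratio of C2 over C1 of tested pathway genes outside the symbol rule and of cell type markers, by list, with open circles for rows not called, red circles for called rows and a blue bar at each median. The medians are -0.71 for TGF-beta target genes and -0.01 for BMP target genes, and among the markers -3.32 for skeletal muscle, -1.07 for fibroblasts, 3.08 for epithelium and 5.75 for cartilage.

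The authors' own gene ontology test names the pathway in 6 of its 919 terms, by a hypergeometric test of 1004 genes against 28912 annotated ones. For regulation of BMP signaling the authors' deposited table gives 7 of 28 annotated genes (exact hypergeometric p = 3.7242e-05 uncorrected, 0.0004048 as corrected by the authors). The members among them are Smad7 and Chrd, and the others include Bmper and Gata4. For negative regulation of BMP signaling the authors' deposited table gives 5 of 19 genes (exact hypergeometric p = 0.00038718 uncorrected, 0.0028541 corrected). Smad7 and Gata4 rose while Chrd and Bmper fell, and the term counts do not separate directions. Id2, Acvr2b and Fstl1 are in none of the 6 terms.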

How the data were processed

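Messenger RNA of 5 tumours was sequenced as 10 samples, each library on 2 lanes, with a stranded kit, per the labels' protocols. Mapping was to MGSCv37 with Bowtie and TopHat and abundance came from Cufflinks, per the series' design text. Versions in the submitters' processing notes are Cufflinks 2.1.1, TopHat2 2.0.8b and CASAVA 1.8.2. Values per condition look like Cuffdiff output and were read as FPKM, although the header names no unit. Each q-value is as deposited by the authors, beside its p-value, and equals the Benjamini-Hochberg adjustment over tested rows to within 5.17e-07. Whether lanes or tumours served as replicates for q is not stated.

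The log2 ratio of C2 over C1 was computed from the deposited values with no pseudocount, and no new test was made. Named are all called members, in each role the tested member with the highest mean and that with the largest ratio among those of at least 1 FPKM in a condition, and in each other list up to 4 called genes, or the most abundant gene where none was called. Members and lists were chosen with earlier results of these data known. Some genes, 1 member among them, enter the counts and medians but are not reported singly here. Where a listed gene outside the symbol rule has several rows, the one of highest mean value was used. The code was tested on simulated data. Gene coordinates are those of the authors' table, and promoter coordinates, on GRCm38.p6, cannot be set against them. Alternatives were q under 0.01, Benjamini-Yekutieli adjustment, at least 1 or 5 FPKM, at least 2-fold apart, adding 0.1 or 1 FPKM before the ratio, centring on the median, the deposited fold, and no joined rows. Software was matplotlib 3.10.9, SciPy 1.17.1, pandas 2.3.3 and numpy 2.4.6 in Python 3.11.15.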

Additional observations from a re-analysis of the deposited data

How the results depend on the processing

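No paired analysis was possible because each condition has only 1 deposited value, and for the same reason no replicate could be left out. At q under 0.01, and with the Benjamini-Yekutieli adjustment, 1 of the 6 called members kept its call, Id2, so that 1 was called higher, 0 lower and 1 role group of 4 held a call. Fewer genes pass these limits by construction. With a 2-fold minimum 3 members were called (Id2, Acvr2b and Chrd), of which 1 was lower. Of the other pathway genes 9 were called at q under 0.01 and 7 with the Benjamini-Yekutieli adjustment, against 15. At a minimum of 5 FPKM 4 members were called, since Acvr2b and Chrd lie below it. No called member changed sign under any of these alternatives. The median log2 ratio of the tested members moved by at most 0.1 under each. The depth, and with it the precision of low values, is unknown.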

Other observations

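The activin subunit Inhba and the activin-binding Fst had values of opposite direction. The ratio of Fst to Inhba was 3.93 in C2 and 1.27 in C1, computed from the deposited FPKM, although neither gene was called. The values of Inhba differ from its deposited fold, as given above. The ratio of Id2 to Id3 was 0.620 in C2 and 0.145 in C1, and that of Smad7 to Smad3 was 0.381 in C2 and 0.214 in C1. Other pairs had the lower ratio in C2. Chrd to Bmp4 was 0.479 in C2 and 0.818 in C1, and Tgfbr3 to Tgfbr2 was 0.563 in C2 and 0.715 in C1. Among the 8 antagonists, Fst made up 33.4% of the summed FPKM in C2 and 15.5% in C1, and Fstl1 31.1% in C2 and 50.5% in C1. These ratios have no error, since each condition has 1 value, and they were formed after the values were seen.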
